A study of Mus musculus with 16 samples.

Results

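The mRNA of 34 proteasome subunits was examined in quadriceps muscle of *Mtm1* knockout mice with and without tamoxifen. The 34 genes were chosen by symbol, as the subunits of the core particle, the immunoproteasome and the regulatory particle, out of 41388 genes in the count table. They comprise 7 alpha subunits and 7 constitutive beta subunits of the core, 3 inducible beta subunits, 6 ATPases and 11 non-ATPase subunits of the regulatory particle. The rule uses gene symbols and no measured value, though the group was picked with earlier results of these data known.

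The proteasome is the protease that removes most short-lived and damaged proteins in the cell. Its core particle is a barrel of stacked alpha and beta rings whose proteolytic sites lie on beta subunits inside, and its regulatory particle binds ubiquitin-tagged proteins, unfolds them with a ring of ATPases and passes them into the core. In skeletal muscle the pathway is known for the breakdown of myofibrillar proteins during wasting, where muscle ubiquitin ligases such as atrogin-1 and MuRF1 mark the substrates. Interferon signaling and antigen-presenting cells are known for a form of the core, the immunoproteasome, in which inducible beta subunits replace the constitutive catalytic ones.

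The mice on a C57BL/6 background were compared at 36 days of age by RNA sequencing, with 4 libraries deposited per group. Wild type (WT) mice and mice lacking exon 4 of *Mtm1*, which encodes the phosphoinositide phosphatase myotubularin (*Mtm1* KO), were either untreated or received tamoxifen, a selective estrogen receptor modulator, in the diet at 40 mg/kg from 21 days of age (WT + TAM and *Mtm1* KO + TAM). The deletion was made by homologous recombination and is not restricted to muscle, and a count of reads per gene still includes transcripts that lack only exon 4. Following the study, 14 libraries formed the main set, with 3 each of WT and *Mtm1* KO and 4 each of WT + TAM and *Mtm1* KO + TAM, and WT replicate 1 and *Mtm1* KO replicate 12 were left out. The study counts each library of this set as 1 mouse.

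The total count per library was between 25116179 and 29847222. In the main set, *Mtm1* itself had 282 to 459 counts in WT and WT + TAM but 53 to 97 counts in *Mtm1* KO and *Mtm1* KO + TAM. The library labelled WT replicate 1 had 74 *Mtm1* counts, which goes against its label. Of all counts, 23.6 to 27.6% in WT and 16.9 to 18.8% in *Mtm1* KO fell on the 10 genes with the highest counts, so levels are given as scaled RPKM, that is, the deposited RPKM divided by the TMM factor of the library. The fiber genes *Ckm*, *Acta1*, *Myh4*, *Myh1*, *Tnnt3*, *Actn3*, *Mb* and *Pygm* mark the tissue as skeletal muscle. In the genotype average, 6 of these 8 were lower at an adjusted p of at most 0.01, where 10.4% of all genes were called lower. The remaining 2 had positive values, 1 of them higher at an adjusted p of at most 0.05. In whole muscle, fewer cells of a type and less RNA per cell cannot be told apart.

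All 34 subunits were expressed. In WT, their mean level ran from 0.971 ± 0.453 scaled RPKM for *Psmb9* to 277 ± 15.3 for *Psmb7* (SD, n = 3), both catalytic beta subunits. The 3 inducible subunits were the lowest of the 34, with 3.18 ± 1.02 for *Psmb8* and 10.8 ± 2.83 for *Psmb10*. The next level above them was 18.7 ± 1.71 for *Psmd11*, a lid subunit. Summed over the 34 genes, the level was 2265 to 2532 scaled RPKM in WT, 2319 to 2867 in WT + TAM, 2393 to 3314 in *Mtm1* KO and 2528 to 3558 in *Mtm1* KO + TAM.

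**Figure D1:**
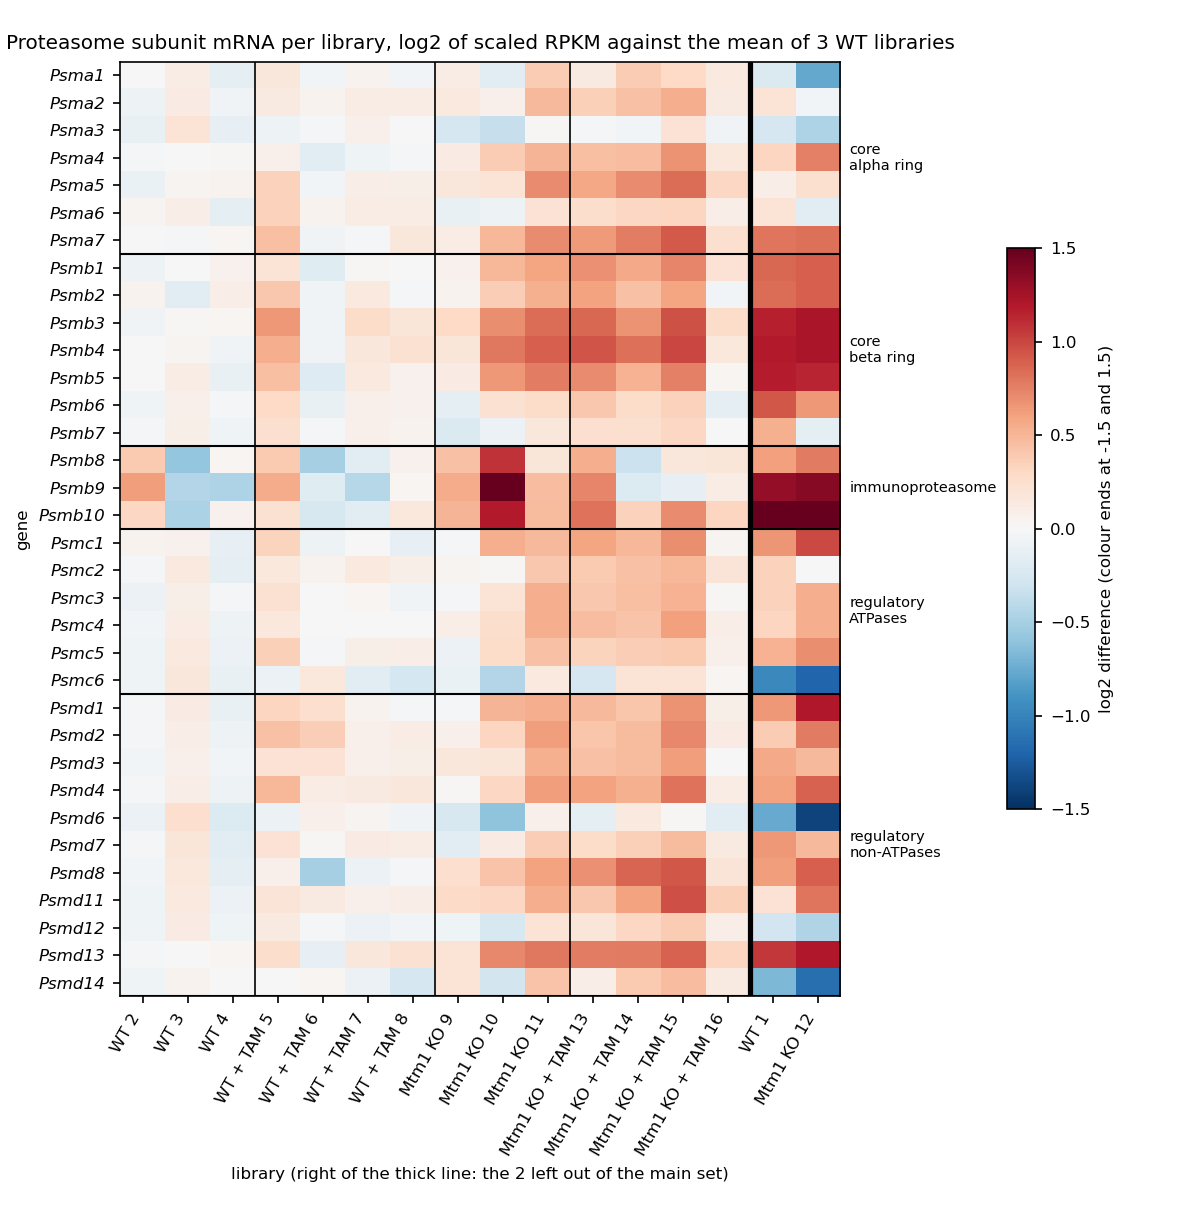
Log2 of the scaled RPKM of each of the 34 subunits (rows, by role) in each library (columns), relative to the mean of the 3 WT libraries of the main set. Red is above WT and blue below. *Mtm1* KO replicate 9 and *Mtm1* KO + TAM replicate 16 are paler than the other libraries of their groups, with medians of 0.08 and 0.12, and the libraries right of the thick line, WT 1 and *Mtm1* KO 12, were not in the main set.

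The libraries of a group were not uniform. The median over the subunits of the log2 level relative to the WT mean was -0.07 to 0.09 in WT and -0.03 to 0.24 in WT + TAM. It was 0.08, 0.29 and 0.50 in *Mtm1* KO replicates 9, 10 and 11, and 0.45, 0.44, 0.60 and 0.12 in *Mtm1* KO + TAM replicates 13, 14, 15 and 16. *Mtm1* KO replicate 9 lay within the WT range and *Mtm1* KO + TAM replicate 16 within the WT + TAM range. The pooled SD of these medians within groups was 0.162. Of the libraries left out, WT replicate 1 had a median of 0.55, with 28 of the 34 subunits above every other WT library and 6 below, and *Mtm1* KO replicate 12 had a median of 0.72, with 19 above and 9 below the other libraries of its group.

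The first question was whether the loss of *Mtm1* changed the subunits as a group. Averaged over the untreated and the tamoxifen-treated animals, 10 of the 34 subunits were higher in *Mtm1* KO at an adjusted p of at most 0.01 in edgeR's quasi-likelihood test, and 0 were lower, where 8.99% of all 15556 genes tested were called higher and 10.4% lower. At an adjusted p of at most 0.05, 18 subunits were higher and 0 lower, against 16.2% of all genes called higher. The median log2 fold change was 0.31 over the subunits and 0.01 over all genes, and 32 subunits had a positive value against 50.6% of all genes. The called subunits were *Psmd13*, *Psmd8*, *Psma4*, *Psmb1*, *Psmd11*, *Psmb10*, *Psmb3*, *Psmb4*, *Psma5* and *Psma7*. The 7 *Mtm1* KO libraries of the main set all lay above the 7 WT libraries for 4 of the 34, *Psma4*, *Psmb10*, *Psmd8* and *Psmd11*, and below them for 0, where 5.05% of all genes lay above.

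With the library total as the only scaling, 30 subunits were called and the median was 0.62, but the median of all genes was then 0.31. The share of all genes called was not recorded in this or the other alternative runs. Their counts are therefore not a result about the subunits. With all 16 libraries, 4 subunits were called, *Psma4*, *Psma5*, *Psmd8* and *Psmd11*. That fit takes WT replicate 1, with 74 *Mtm1* counts, as WT, so it is not a clean check of the calls. Leaving out 1 library gave 5 to 14 calls, with 5 without WT replicate 2, 3 or 4 or *Mtm1* KO replicate 11, 6 without *Mtm1* KO replicate 10, *Mtm1* KO + TAM replicate 15 or WT + TAM replicate 8, and 14 without *Mtm1* KO replicate 9 or *Mtm1* KO + TAM replicate 16.

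In untreated mice, 0 of the 34 subunits passed an adjusted p of at most 0.01 between *Mtm1* KO and WT in edgeR's quasi-likelihood test, where 1.91% of all genes were called higher and 1.69% lower. At an unadjusted p of at most 0.05, 18 were higher and 0 lower, against 15.7% of all genes higher. DESeq2 called 3, edgeR's exact test 1, and limma on log2 RPKM 4 or 3 depending on the pseudocount. At an adjusted p of at most 0.05, 3 subunits were higher, *Psmb3*, *Psmb4* and *Psmd13*, and 0 were lower, against 6.26% of all genes higher and 6.53% lower. The 3 *Mtm1* KO libraries lay above the 3 WT libraries for 12 of the 34 subunits and below them for 0, where 17.4% of all genes lay above. The median log2 fold change was 0.36, against 0.02 over all genes, and 30 subunits had a positive value against 52.4% of all genes.

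Under tamoxifen, 1 of the 34 subunits, *Psmd8*, was higher in *Mtm1* KO + TAM than in WT + TAM at an adjusted p of at most 0.01, where 3.42% of all genes were called higher and 3.3% lower. At an adjusted p of at most 0.05, 8 were higher and 0 lower, against 8.19% of all genes higher and 8.81% lower. DESeq2 called 5 at an adjusted p of at most 0.01. The share of all genes was not recorded for DESeq2 or with libraries left out. Leaving out any 1 of WT + TAM replicates 5 to 8 or *Mtm1* KO + TAM replicates 13 to 15 gave 0 calls, and leaving out *Mtm1* KO + TAM replicate 16 gave 4. The median log2 fold change was 0.28, against -0.01 over all genes, and 33 subunits had a positive value. The 4 *Mtm1* KO + TAM libraries lay above the 4 WT + TAM libraries for 8 subunits, where 10.9% of all genes lay above. These 2 comparisons share no library, and 30 of the 34 subunits had a positive value in both, against 39.2% of all genes. Over the 34 subunits their log2 fold changes had a Pearson r of 0.59 and a Spearman rho of 0.67, against 0.75 and 0.69 over all genes tested in both. The libraries of a comparison are shared by all its genes, so that this is a description.

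**Figure D2:**
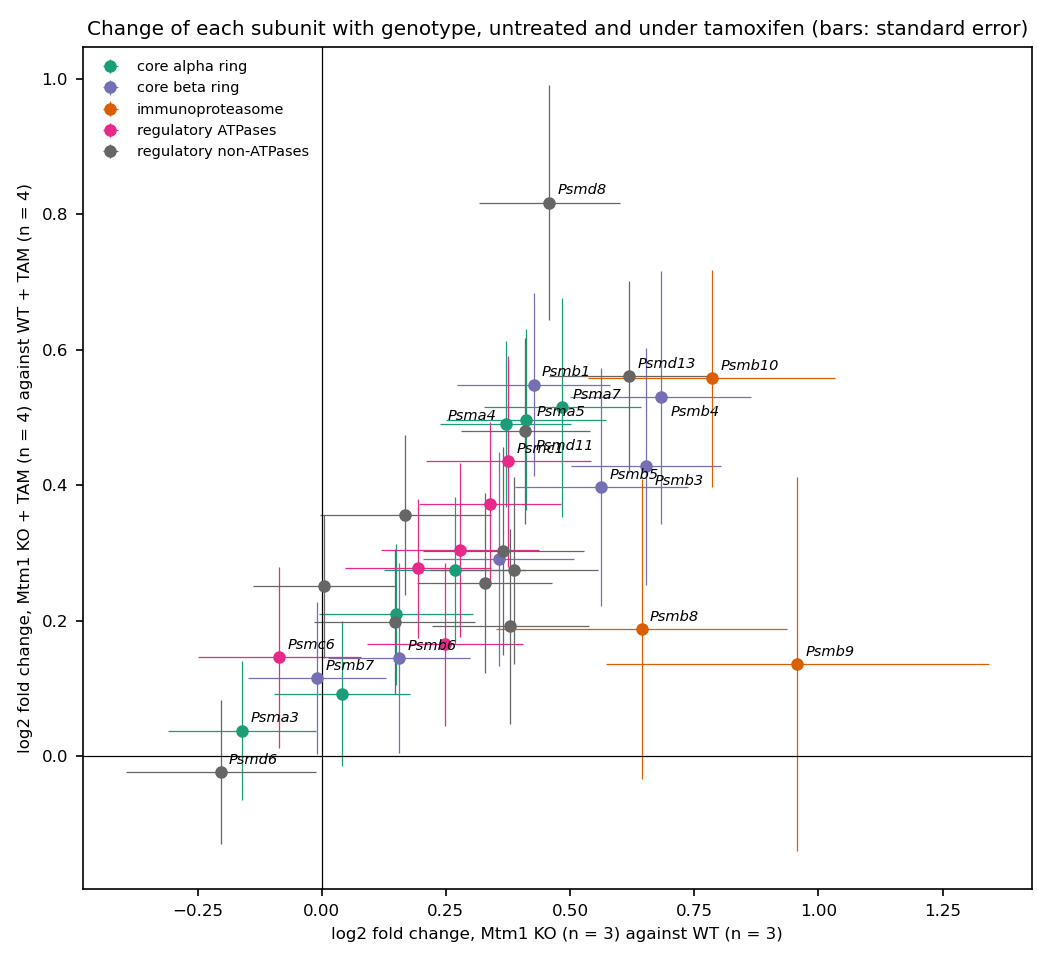
Log2 fold change of each subunit between *Mtm1* KO and WT (horizontal) and between *Mtm1* KO + TAM and WT + TAM (vertical), with standard errors and colors by role. Most points lie above 0 on both axes. *Psmb8* and *Psmb9* lie far to the right and near 0 on the vertical axis, while *Psmd8* is the highest point, at 0.82.

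The alpha subunits form the outer rings of the core and gate the entry of substrates. In the genotype average, 3 of the 7 were higher at an adjusted p of at most 0.01 and 0 lower. The shares of all genes were 8.99% higher and 10.4% lower. The levels that follow are in scaled RPKM and in the order of the replicate numbers. *Psma4* stood at 47.0, 48.3 and 48.7 in WT, 50.4, 42.6, 46.1 and 47.5 in WT + TAM, 52.1, 62.7 and 68.3 in *Mtm1* KO and 65.9, 66.1, 76.5 and 53.5 in *Mtm1* KO + TAM. Of its transcript stretches of 50 bases, 14.3% also occur in other genes. Every *Mtm1* KO library with or without tamoxifen exceeded every WT library with or without tamoxifen, and the log2 fold change of the genotype average was 0.42 ± 0.09 (SE, adjusted p = 0.00227). *Psma7* was measured at 31.9, 31.1 and 32.5 in WT, 43.4, 30.8, 31.3 and 35.8 in WT + TAM, 34.3, 44.9 and 52.2 in *Mtm1* KO and 49.7, 54.2, 60.3 and 37.5 in *Mtm1* KO + TAM. Here WT + TAM replicate 5 lay within the range of the *Mtm1* KO libraries, and the change was 0.49 ± 0.12 (adjusted p = 0.0063).

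*Psma5* had 46.8, 51.2 and 51.8 in WT and 63.3, 48.4, 53.6 and 52.9 in WT + TAM, against 56.4, 57.7 and 81.9 in *Mtm1* KO and 74.6, 81.6, 89.4 and 62.0 in *Mtm1* KO + TAM. Its change was 0.44 ± 0.11 (adjusted p = 0.00545), and 49.96% of its 50-base transcript stretches also occur in other genes, 33.6% in *Gm8394*, so that its counts are uncertain. *Psma3*, by contrast, had the lowest change of the ring. It read 46.4, 57.9 and 45.7 in WT, 47.3, 48.9, 52.8 and 49.997 in WT + TAM, 42.0, 39.4 and 50.6 in *Mtm1* KO and 49.1, 48.7, 58.0 and 48.3 in *Mtm1* KO + TAM, with overlap between all groups. The value of -0.07 ± 0.09 (adjusted p = 0.545) became 0.24 with the library total as the only scaling. The remaining alpha subunits, *Psma1*, *Psma2* and *Psma6*, had changes of 0.17 ± 0.09, 0.26 ± 0.09 and 0.05 ± 0.08, of which that of *Psma2* passed an adjusted p of 0.05.

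The constitutive beta subunits form the inner rings. In the genotype average, 3 of the 7 were higher at an adjusted p of at most 0.01 and 0 lower, where 8.99% of all genes were higher and 10.4% lower. All 3, *Psmb1*, *Psmb3* and *Psmb4*, carry no proteolytic site. The catalytic *Psmb5* did not pass 0.01, but its change of 0.47 was close to the 0.48 of *Psmb1*. *Psmb4* was at 113, 116 and 109 in WT, 165, 109, 127 and 133 in WT + TAM, 128, 196 and 211 in *Mtm1* KO and 217, 199, 226 and 126 in *Mtm1* KO + TAM. *Mtm1* KO replicate 9 and *Mtm1* KO + TAM replicate 16 were at the level of WT + TAM replicates 7 and 8, whereas the other *Mtm1* KO libraries lay above every WT library. The changes were 0.68 ± 0.18 untreated (adjusted p = 0.0405), 0.53 ± 0.19 under tamoxifen (adjusted p = 0.074) and 0.59 ± 0.14 on average (adjusted p = 0.00507).

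For *Psmb3*, WT gave 41.2, 43.3 and 43.4, WT + TAM 66.8, 41.1, 51.7 and 48.4, *Mtm1* KO 52.6, 69.0 and 76.4 and *Mtm1* KO + TAM 77.3, 68.3, 82.5 and 51.8. Its untreated change of 0.65 ± 0.15 had the lowest adjusted p of the 34 subunits in that comparison, 0.0252, and 17.8% of its 50-base stretches also occur in other genes. Such stretches make up 9.43% of *Psmd11*, 8.23% of *Psmd13*, 14.1% of *Psmc1*, 15.4% of *Psma3*, 17.8% of *Psmd2* and 9.26% of *Psmb7*. *Psmb1* gave 115, 122 and 126 in WT, 139.8, 106, 123 and 121 in WT + TAM, 127, 170.4 and 183 in *Mtm1* KO and 194, 179.8, 201 and 141 in *Mtm1* KO + TAM. Its ranges did not overlap between *Mtm1* KO + TAM and WT + TAM, and its average change was 0.48 ± 0.10 (adjusted p = 0.00273). *Psmb2*, also without a proteolytic site, had 0.31 ± 0.12, which did not pass an adjusted p of 0.05.

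**Figure D3:**
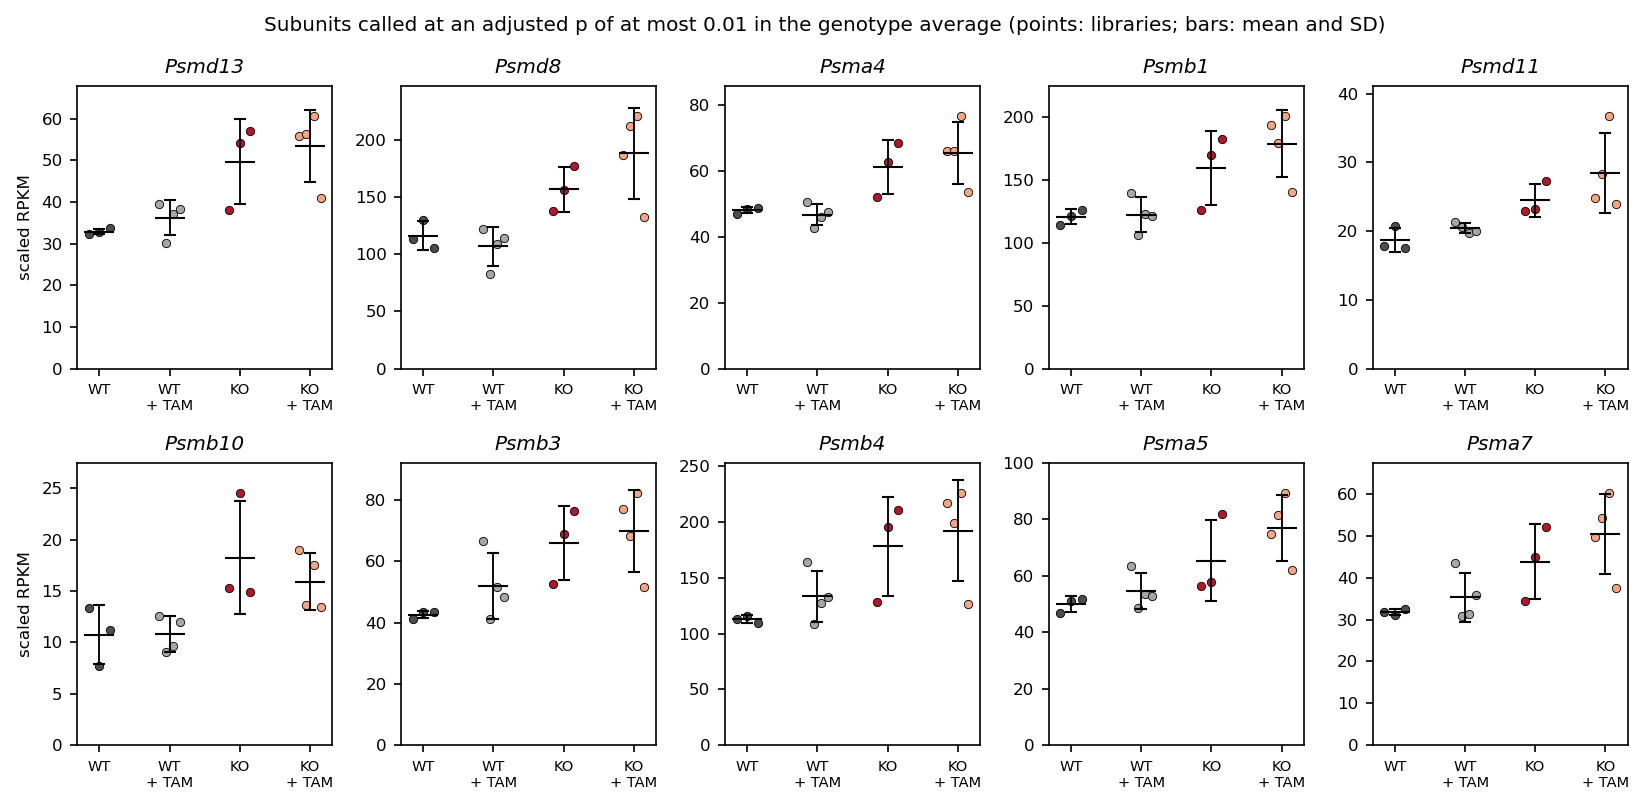
Scaled RPKM of the 10 subunits called in the genotype average, by library (points) with the group mean and SD (bars), ordered by adjusted p. The means of the *Mtm1* KO groups sit above those of the WT groups in each panel, and in most panels 1 *Mtm1* KO library and 1 *Mtm1* KO + TAM library reach down toward the WT libraries.

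The catalytic beta subunits had unequal values, and the differences between them were not tested beyond the ratios given further on. *Psmb5*, the chymotrypsin-like subunit, had 170.3, 184 and 159 scaled RPKM in WT, 233, 150.2, 189 and 178 in WT + TAM, 186, 269 and 291 in *Mtm1* KO and 280.1, 246, 288 and 175 in *Mtm1* KO + TAM. The 3 *Mtm1* KO libraries lay above the 3 WT libraries, and the average change of 0.47 ± 0.13 passed an adjusted p of 0.05 but not of 0.01 (adjusted p = 0.0146). Of its 50-base stretches, 54.1% occur in other genes, 46.8% in *Gm3375*, so that this count is uncertain too.

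*Psmb6*, the caspase-like subunit, was at 87.9, 97.4 and 90.7 in WT, 114, 85.0, 97.1 and 96.3 in WT + TAM, 82.9, 108 and 112 in *Mtm1* KO and 122, 112, 117 and 82.9 in *Mtm1* KO + TAM. *Psmb7*, the trypsin-like subunit, was at 272, 294 and 264 in WT, 327, 271, 292 and 288 in WT + TAM, 238, 261 and 312 in *Mtm1* KO and 329, 327, 343 and 277 in *Mtm1* KO + TAM. For both genes the groups overlapped. The average changes were 0.14 ± 0.10 (adjusted p = 0.33) and 0.04 ± 0.08 (adjusted p = 0.753), and the sign of the latter turned with all 16 libraries, to -0.05.

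The 3 inducible subunits lie on 2 chromosomes. *Psmb8* (ENSMUSG00000024338, chr17:34197721-34201454, plus strand, GRCm38) replaces *Psmb5* in the immunoproteasome, *Psmb9* (ENSMUSG00000096727, chr17:34181987-34187764, minus strand) replaces *Psmb6*, and *Psmb10* (ENSMUSG00000031897, chr8:105935735-105938444, minus strand) replaces *Psmb7*. *Psmb10* stood at 13.3, 7.72 and 11.2 scaled RPKM in WT, 12.6, 9.08, 9.62 and 11.96 in WT + TAM, 15.3, 24.6 and 14.9 in *Mtm1* KO and 19.0, 13.7, 17.5 and 13.4 in *Mtm1* KO + TAM. All 7 *Mtm1* KO libraries exceeded all 7 WT libraries, *Mtm1* KO + TAM replicate 16 by the least. The log2 fold change was 0.79 ± 0.25 untreated (adjusted p = 0.069), 0.56 ± 0.16 under tamoxifen (adjusted p = 0.035) and 0.66 ± 0.15 on average, the largest value among the 34 subunits and the only inducible one called (adjusted p = 0.00393). The average change was 0.56 without WT replicate 3, 0.52 without *Mtm1* KO replicate 10 and 0.46 with all 16 libraries, and in each of these it no longer passed 0.01. The last of these takes WT replicate 1, with 74 *Mtm1* counts, as WT.

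*Psmb8* was at 4.18, 2.14 and 3.24 in WT, 4.18, 2.25, 2.84 and 3.34 in WT + TAM, 4.32, 6.76 and 3.61 in *Mtm1* KO and 4.64, 2.54, 3.57 and 3.601 in *Mtm1* KO + TAM. *Psmb9* was at 1.49, 0.717 and 0.703 in WT, 1.43, 0.857, 0.720 and 0.991 in WT + TAM, 1.42, 2.81 and 1.34 in *Mtm1* KO and 1.62, 0.840, 0.895 and 1.05 in *Mtm1* KO + TAM. Some of their transcript stretches also occur in overlapping genes, 11.9% for *Psmb8* and 4.19% for *Psmb9*. For both genes the WT and *Mtm1* KO ranges overlapped and *Mtm1* KO replicate 10 was the highest library. Untreated, *Psmb9* differed by 0.96 ± 0.39 (adjusted p = 0.134) and *Psmb8* by 0.64 ± 0.29 (adjusted p = 0.175), the former being the largest untreated value of the 34 subunits. Without *Mtm1* KO replicate 10 these values were 0.53 and 0.34, and without WT replicate 2 they were 1.41 and 0.89. Under tamoxifen they differed by 0.14 ± 0.28 (adjusted p = 0.771) and 0.19 ± 0.22 (adjusted p = 0.603).

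Markers of cells that carry the immunoproteasome moved with genotype too, and their part in these values was not tested. The summed level of 6 antigen-presenting cell genes (*Cd74*, *H2-Aa*, *H2-Ab1*, *H2-Eb1*, *Itgax* and *Flt3*) was 90.0 to 136 scaled RPKM in WT, 32.5 to 119 in WT + TAM, 173 to 326 in *Mtm1* KO and 149 to 213 in *Mtm1* KO + TAM. In the genotype average 5 of the 6 were called higher, where 8.99% of all genes were. Of 7 macrophage and monocyte genes 2 were called higher, *Cd68* and *C1qb*, and 1 had a negative value, of -0.006. The sums of the 7 were 115 to 132 in WT, 53.9 to 144 in WT + TAM, 152 to 221 in *Mtm1* KO and 152 to 266 in *Mtm1* KO + TAM. The sum of 9 lymphocyte genes was 6.60 in *Mtm1* KO replicate 10, the library with the highest inducible subunits, and 0.412 to 1.86 in the other libraries of the main set, and *Cd8a* was at 0 in all WT and WT + TAM libraries.

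The proportion of each inducible subunit to the constitutive subunit it replaces was compared as a ratio of RPKM, which does not depend on the scaling of a library. The GC content, taken up further on, is 56.5% for *Psmb10* and 48.7% for *Psmb7*, and its part in their ratio was not tested. The *Psmb10* to *Psmb7* ratio was 4.90, 2.63 and 4.24% in WT, 3.84, 3.35, 3.29 and 4.15% in WT + TAM, 6.41, 9.42 and 4.77% in *Mtm1* KO and 5.77, 4.18, 5.11 and 4.86% in *Mtm1* KO + TAM. The *Mtm1* KO + TAM libraries all lay above the WT + TAM libraries, and the *Mtm1* KO libraries overlapped with WT replicate 2. On the log2 scale the ratio was higher in *Mtm1* KO by 0.80 untreated and by 0.44 under tamoxifen, on average 0.62 or 1.54-fold (exact two-sided permutation test within treatments over 1400 splits, p = 0.00429, adjusted p = 0.0257 over 6 tests). The smallest p this design allows is 0.00143. The adjusted p rose past 0.05, to at most 0.06, without WT replicate 3, WT replicate 4 or *Mtm1* KO replicate 10. It rose to 0.157 with all 16 libraries, where WT replicate 1, with 74 *Mtm1* counts, is taken as WT.

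The *Psmb8* to *Psmb5* ratio was 2.45, 1.16 and 2.04% in WT, 1.79, 1.497, 1.504 and 1.87% in WT + TAM, 2.33, 2.51 and 1.24% in *Mtm1* KO and 1.66, 1.03, 1.24 and 2.06% in *Mtm1* KO + TAM. The *Psmb9* to *Psmb6* ratio was 1.6995, 0.736 and 0.774% in WT, 1.26, 1.01, 0.741 and 1.03% in WT + TAM, 1.72, 2.61 and 1.20% in *Mtm1* KO and 1.33, 0.753, 0.766 and 1.26% in *Mtm1* KO + TAM. Both overlapped between all groups. In the same exact permutation test their genotype differences were -0.04 (adjusted p = 0.84) and 0.41 (adjusted p = 0.322) on the log2 scale. The tamoxifen differences of the 3 ratios were -0.27, -0.41 and -0.24 in the order above with *Psmb10* last, each with an adjusted p of 0.322.

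**Figure D4:**
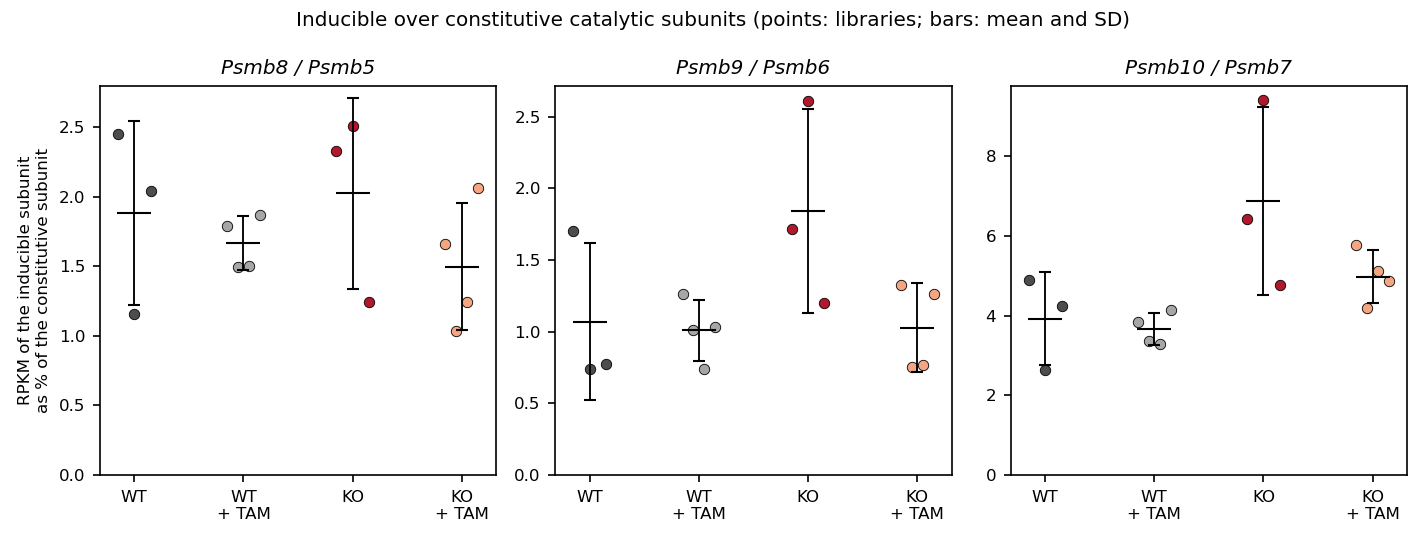
RPKM of each inducible catalytic subunit as a percentage of the constitutive subunit it replaces, by library (points) with the group mean and SD (bars). The *Psmb10* to *Psmb7* ratio averages 3.92% in WT and 6.87% in *Mtm1* KO, with 1 WT library inside the *Mtm1* KO range, and the groups overlap for the other pairs too.

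None of the 6 ATPases, which unfold substrates and push them into the core, passed an adjusted p of 0.01 in the genotype average in edgeR's test, and 4 were higher at an unadjusted p of at most 0.05, where 21.3% of all genes were higher and 22.3% lower. At an adjusted p of at most 0.05, 3 were higher, *Psmc1*, *Psmc3* and *Psmc4*, with changes of 0.39 ± 0.12, 0.28 ± 0.10 and 0.34 ± 0.09 (adjusted p = 0.0206, 0.0476 and 0.0106). At that threshold 16.2% of all genes were higher. *Psmc1* had 114, 115 and 101 scaled RPKM in WT, 138, 104, 110.3 and 101 in WT + TAM, 108, 160.4 and 154 in *Mtm1* KO and 166, 156, 178 and 113 in *Mtm1* KO + TAM. *Mtm1* KO replicate 9 and *Mtm1* KO + TAM replicate 16 lay within the WT and WT + TAM ranges. *Psmc6* had 71.6, 84.1 and 69.3 in WT, 70.5, 83.5, 66.4 and 62.4 in WT + TAM, 70.1, 55.5 and 83.0 in *Mtm1* KO and 63.0, 86.6, 86.7 and 76.3 in *Mtm1* KO + TAM, and its average change was 0.02 ± 0.11 (adjusted p = 0.921), with overlap between all groups. *Psmc2* and *Psmc5* had log2 fold changes of 0.22 ± 0.08 and 0.19 ± 0.10, neither passing an adjusted p of 0.05.

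Of the 11 non-ATPase subunits, 3 were higher in the genotype average at an adjusted p of at most 0.01 and 0 lower. The shares of all genes were 8.99% higher and 10.4% lower. All 3, *Psmd8*, *Psmd11* and *Psmd13*, belong to the lid, the part of the regulatory particle that removes ubiquitin chains. The lid also holds uncalled members of the list, among them *Psmd6*. *Psmd8* (ENSMUSG00000030591, chr7:29174188-29180701, minus strand) stood at 113, 129.8 and 105 scaled RPKM in WT, 122, 82.5, 109 and 114 in WT + TAM, 138, 156 and 177 in *Mtm1* KO and 187, 212, 221 and 133 in *Mtm1* KO + TAM. All *Mtm1* KO libraries exceeded all WT libraries, though *Mtm1* KO + TAM replicate 16 did so by little. The log2 fold change was 0.46 ± 0.14 untreated (adjusted p = 0.065), 0.82 ± 0.17 under tamoxifen (adjusted p = 0.00908) and 0.62 ± 0.12 on average (adjusted p = 0.00121). The average stayed between 0.57 and 0.69 when any 1 library was left out, each time called.

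*Psmd13* (ENSMUSG00000025487, chr7:140881968-140898643, plus strand) had the lowest adjusted p of the 34 subunits in the genotype average, 0.00102, with a change of 0.58 ± 0.11. Its levels were 32.2, 32.8 and 33.6 in WT, 39.4, 30.2, 37.0 and 38.4 in WT + TAM, 38.0, 54.1 and 57.0 in *Mtm1* KO and 55.9, 56.3, 60.6 and 41.0 in *Mtm1* KO + TAM. *Mtm1* KO replicate 9 lay within the WT + TAM range and the other *Mtm1* KO libraries, treated or not, lay above every WT and WT + TAM library. *Psmd11* was measured at 17.9, 20.7 and 17.6 in WT, 21.4, 20.6, 19.7 and 20.0 in WT + TAM, 22.9, 23.2 and 27.2 in *Mtm1* KO and 24.8, 28.3, 36.7 and 24.0 in *Mtm1* KO + TAM, without overlap between the genotypes, and changed by 0.43 ± 0.10 (adjusted p = 0.0033).

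Against this, *Psmd6*, another lid subunit, had the lowest change of the 34. It read 62.5, 78.9 and 57.5 in WT, 62.4, 69.6, 68.0 and 63.7 in WT + TAM, 56.0, 43.7 and 70.1 in *Mtm1* KO and 59.9, 73.1, 67.2 and 59.1 in *Mtm1* KO + TAM, and the average change of -0.13 ± 0.11 (adjusted p = 0.393) became 0.19 with the library total as the only scaling. *Psmd1*, *Psmd3* and *Psmd4* passed an adjusted p of 0.05, with changes of 0.32 ± 0.11, 0.28 ± 0.10 and 0.32 ± 0.12. Of these, *Psmd1* is a scaffold of the base and *Psmd4* a ubiquitin receptor. The scaffold *Psmd2* and the deubiquitinase *Psmd14* had log2 fold changes of 0.27 ± 0.11 and 0.25 ± 0.10, and *Psmd7* and *Psmd12* had 0.16 ± 0.09 and 0.12 ± 0.08, none of which passed 0.05.

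The effect of tamoxifen on the subunits was then compared within genotypes. In *Mtm1* KO, 0 of the 34 subunits passed an adjusted p of at most 0.01 in edgeR's quasi-likelihood test between *Mtm1* KO + TAM and *Mtm1* KO, where 0% of all genes were called higher, and DESeq2, edgeR's exact test and limma called 0 as well. At an unadjusted p of at most 0.05, 0 subunits were higher and 1 lower, *Psmb9*, against 3.07% of all genes higher and 4.48% lower. The median log2 fold change was 0.11 over the subunits and -0.01 over all genes, and 30 subunits were positive, against 48.2% of all genes. In WT, 0 subunits were called between WT + TAM and WT by any of these tools where 0.0688% of all genes were called higher and 0.0619% lower. At an unadjusted p of at most 0.05 there were 0, against 4.67% of all genes higher and 5.98% lower. The median was 0.10, and 26 subunits were positive, against 49.5% of all genes. The 4 *Mtm1* KO + TAM libraries lay above the 3 *Mtm1* KO libraries for 0 subunits, where 3.98% of all genes did, and the WT + TAM libraries above the WT libraries for 1, *Psmd4*, where 5.09% of all genes did.

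The 3 inducible subunits were the lowest of the 34 in the comparison of *Mtm1* KO + TAM with *Mtm1* KO, with log2 fold changes of -0.77 ± 0.31 for *Psmb9* (adjusted p = 0.565), -0.46 ± 0.24 for *Psmb8* (adjusted p = 0.746) and -0.21 ± 0.20 for *Psmb10* (adjusted p = 0.883). Without *Mtm1* KO replicate 10 these values were -0.34, -0.16 and 0.06 in the same order. In the same comparison all 6 antigen-presenting cell genes had values below 0, with a median of -0.55 and 0 called in edgeR's test. At an unadjusted p of at most 0.05, 4 were lower, where 4.48% of all genes were. The part of these cells in the values of the inducible subunits was not tested. In WT + TAM against WT the 5 antigen-presenting cell genes that could be tested were below 0 as well, with a median of -0.52 and 0 called. At an unadjusted p of at most 0.05, 1 was lower, where 5.98% of all genes were. In WT + TAM against WT the values of the inducible subunits lay between -0.02 and 0.04. The difference between these effects, tested as an interaction, was -0.80 to -0.20 for the 3 genes, and 0 of the 34 subunits passed it at any threshold used, with 0% of all genes called and 0 subunits called in DESeq2. At an unadjusted p of at most 0.05 there were 0 subunits, against 2.08% of all genes above and 2.19% below, and 21 subunits had a positive interaction, against 51.4% of all genes.

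Compared with untreated WT, *Mtm1* KO + TAM had 1 subunit called at an adjusted p of at most 0.01, *Psmd13*, at 0.70 ± 0.14 (adjusted p = 0.00743), where 3.56% of all genes were called higher and 4.14% lower. DESeq2 called 10, edgeR's exact test 8, and 10 were called without *Mtm1* KO + TAM replicate 16, but 0 without any 1 of the other 6 libraries and 0 with WT replicate 1 included. The share of all genes called was not recorded in these runs, and WT replicate 1 had 74 *Mtm1* counts, against its label. At an adjusted p of at most 0.05, 12 were higher and 0 lower, against 9.45% of all genes higher, and the median was 0.41, against -0.0013 over all genes, with 33 subunits positive against 49.9% of all genes. The libraries did not overlap for 17 subunits, where 15% of all genes lay above. This comparison shares its *Mtm1* KO + TAM and WT libraries with the comparisons above.

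Base composition moved with these values, and its part in them was not tested beyond the offset given here. The GC content of the longest coding transcript ran from 37.0% for *Psmc6* to 58.3% for *Psmd3*. Over the 34 subunits, the log2 fold change had a Pearson r with GC of 0.62 between *Mtm1* KO and WT, 0.27 between *Mtm1* KO + TAM and WT + TAM and 0.53 in the genotype average, against 0.12, 0.04 and 0.07 over all genes with a value. The 17 subunits of lower GC had a median change of 0.22 in the genotype average, with 4 called, and the 17 of higher GC had 0.40, with 6 called. Libraries of 1 group differed in the same way. Against the other libraries of its group, r ran from -0.59 in *Mtm1* KO replicate 9 to 0.74 in WT replicate 1, and it was 0.67 in *Mtm1* KO replicate 12, 0.62 in *Mtm1* KO replicate 10 and -0.45 in *Mtm1* KO + TAM replicate 16. With each library's trend against GC as an offset, a setting chosen after seeing the data, 10 subunits were called and the median was 0.31. Of the subunits called in the genotype average, all 10 were called with the offset as well. The trend was fitted over all genes, so it cannot remove a relation with GC that only the subunits have. The r over the subunits after the offset was not computed, and no conclusion is drawn from the unchanged calls.

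The regions before the transcription starts were searched for short motifs, since many subunits moved together. RefSeq windows of 300 bases, 250 before and 50 after a start (GRCm38.p6), were available for 28 of the 34 subunits. There were 30 such windows, and in 26 of them the bases after the start occurred in an annotated transcript of the gene. The antioxidant response element, spelled TGACNNNGC and bound by the factors that regulate proteasome genes, occurred on either strand in 4 of the 28 (14.3%) and in 13.99% of all genes with a window. The 4 were *Psmb5*, *Psmb6*, *Psmc6* and *Psmd12*, none of them among the 10 called. The interferon-stimulated response element occurred in *Psmb3* and *Psmd4* (7.14%, against 3.99% of all genes), the gamma-activated sequence, TTCNNNGAA, in *Psmb8* and *Psmd2* (7.14%, against 9.55%), and the CCAAT box in 11 (39.3%, against 41.1%). A match is a string of letters in these windows and not a bound site.

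The 250 bases before the start are shown for a pair of catalytic subunits with the antioxidant response element, *Psmb5* and *Psmb6*, and for a pair of called subunits, *Psma7* with a CCAAT box and *Psmd8* with none of the 4 motifs. The motif is in capitals, and the sequences are from RefSeq, 5′ to 3′ in the direction of the gene. *Psmb5* is at chr14:54617996-54618245, minus strand, *Psmb6* at chr11:70525107-70525356, plus strand, *Psma7* at chr2:180042465-180042714, minus strand and *Psmd8* at chr7:29180674-29180923, minus strand.
Psmb5: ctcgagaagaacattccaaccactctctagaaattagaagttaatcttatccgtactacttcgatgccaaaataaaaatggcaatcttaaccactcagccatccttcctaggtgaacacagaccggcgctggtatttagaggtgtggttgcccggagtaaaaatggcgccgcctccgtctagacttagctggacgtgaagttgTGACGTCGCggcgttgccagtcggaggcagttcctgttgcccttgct
Psmb6: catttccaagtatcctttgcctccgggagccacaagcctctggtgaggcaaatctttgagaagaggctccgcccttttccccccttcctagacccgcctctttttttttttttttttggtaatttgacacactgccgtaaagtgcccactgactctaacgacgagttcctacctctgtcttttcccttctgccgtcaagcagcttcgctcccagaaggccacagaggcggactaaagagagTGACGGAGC
Psma7: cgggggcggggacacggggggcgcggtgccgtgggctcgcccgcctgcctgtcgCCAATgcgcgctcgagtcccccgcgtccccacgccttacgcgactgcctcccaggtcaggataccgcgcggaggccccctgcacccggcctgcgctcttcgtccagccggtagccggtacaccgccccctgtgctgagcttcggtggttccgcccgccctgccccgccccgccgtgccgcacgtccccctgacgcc
Psmd8: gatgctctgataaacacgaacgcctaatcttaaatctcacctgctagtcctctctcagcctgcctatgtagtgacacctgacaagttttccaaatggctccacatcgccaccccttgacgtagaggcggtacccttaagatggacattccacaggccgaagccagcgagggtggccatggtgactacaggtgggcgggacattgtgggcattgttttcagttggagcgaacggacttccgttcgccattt
The first base of the element lies 47 bases before the start in *Psmb5* and 9 before it in *Psmb6*, and the CCAAT box of *Psma7* begins 196 bases before the start.

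Other genes of the pathway were read from the same fits. Their values are relative to the TMM scaling, and they were not recomputed with the library total as the only scaling, where the median of all genes stood 0.31 higher in the genotype average. Of 7 assembly chaperones tested, 3 were higher in the genotype average at an adjusted p of at most 0.01 and 0 lower, with a median of 0.39. At that threshold 8.99% of all genes were higher and 10.4% lower. *Pomp*, the chaperone that completes the beta rings, rose from 147 ± 0.746 scaled RPKM in WT (SD, n = 3) to 224 ± 38.4 in *Mtm1* KO (n = 3), and from 135 ± 17.4 in WT + TAM (n = 4) to 222 ± 28.3 in *Mtm1* KO + TAM (n = 4). Its log2 fold change was 0.64 ± 0.15 untreated (adjusted p = 0.0244), 0.72 ± 0.13 under tamoxifen (adjusted p = 0.00473) and 0.66 ± 0.10 on average (adjusted p = 0.000164). *Psmg4*, part of a chaperone of the alpha ring, changed by 0.82 ± 0.17 on average (adjusted p = 0.00204) and *Psmd10*, a chaperone of the ATPase ring, by 0.39 ± 0.09 (adjusted p = 0.00326).

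Among 6 activators and inhibitors, 1 was called higher and 1 lower, where 8.99% of all genes were called higher and 10.4% lower. *Psme2*, a subunit of the interferon-inducible activator of the core, changed by 0.46 ± 0.11 (adjusted p = 0.00429), and its partner *Psme1* had 0.09 ± 0.13 (adjusted p = 0.644). The table also lists *Psme2b*, a copy of *Psme2*, so that the count of *Psme2* is uncertain. *Psme4*, a large activator that opens the core without ubiquitin, fell, with -0.49 ± 0.12 (adjusted p = 0.00462). Of 7 other subunits and proteasome-bound proteins tested, 2 were higher, *Psmd5* and *Txnl1*, and 2 lower, the deubiquitinase *Uchl5* with -0.46 ± 0.08 (adjusted p = 0.000493) and the ubiquitin ligase *Ube3c* with -0.45 ± 0.12 (adjusted p = 0.00832). *Psma8* and *Psmb11*, the germ cell and thymus forms of core subunits, did not pass the filter on low counts.

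*Nfe2l1*, the transcription factor of proteasome genes that is made at the endoplasmic reticulum, stood at 116 ± 7.08 scaled RPKM in WT, 121 ± 6.44 in WT + TAM, 122 ± 9.47 in *Mtm1* KO and 145 ± 14.02 in *Mtm1* KO + TAM, and did not pass in the genotype average (0.17 ± 0.08, adjusted p = 0.11). Of the 12 genes of its list, 2 were called lower and 2 higher, where 10.4% of all genes were called lower and 8.99% higher. Those called lower both process the factor: the protease *Ddi2* with -0.52 ± 0.09 (adjusted p = 0.000512) and the glycanase *Ngly1* with -0.49 ± 0.12 (adjusted p = 0.0048). The genes called higher were *Maff* with 1.05 ± 0.20 (adjusted p = 0.000891) and *Nfe2l3*. The latter was at 0 in the 3 WT libraries and at most 0.25 scaled RPKM in any library of the main set. It passed the filter on low counts only in fits that held both *Mtm1* KO groups, so that no weight is put on its call. *Maff* encodes a small partner of the family. *Nfe2l2* was higher in *Mtm1* KO + TAM than in WT, with 0.61 ± 0.12 (adjusted p = 0.00568). In WT + TAM against WT, 5 of the 11 genes of this list tested were higher at an unadjusted p of at most 0.05 and 0 lower. Among all genes 4.67% were higher. *Nfe2l2* was among the 5, with an unadjusted p of 0.00267 in edgeR's test (adjusted p = 0.157), and 0 of the 11 were called.

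**Figure D5:**
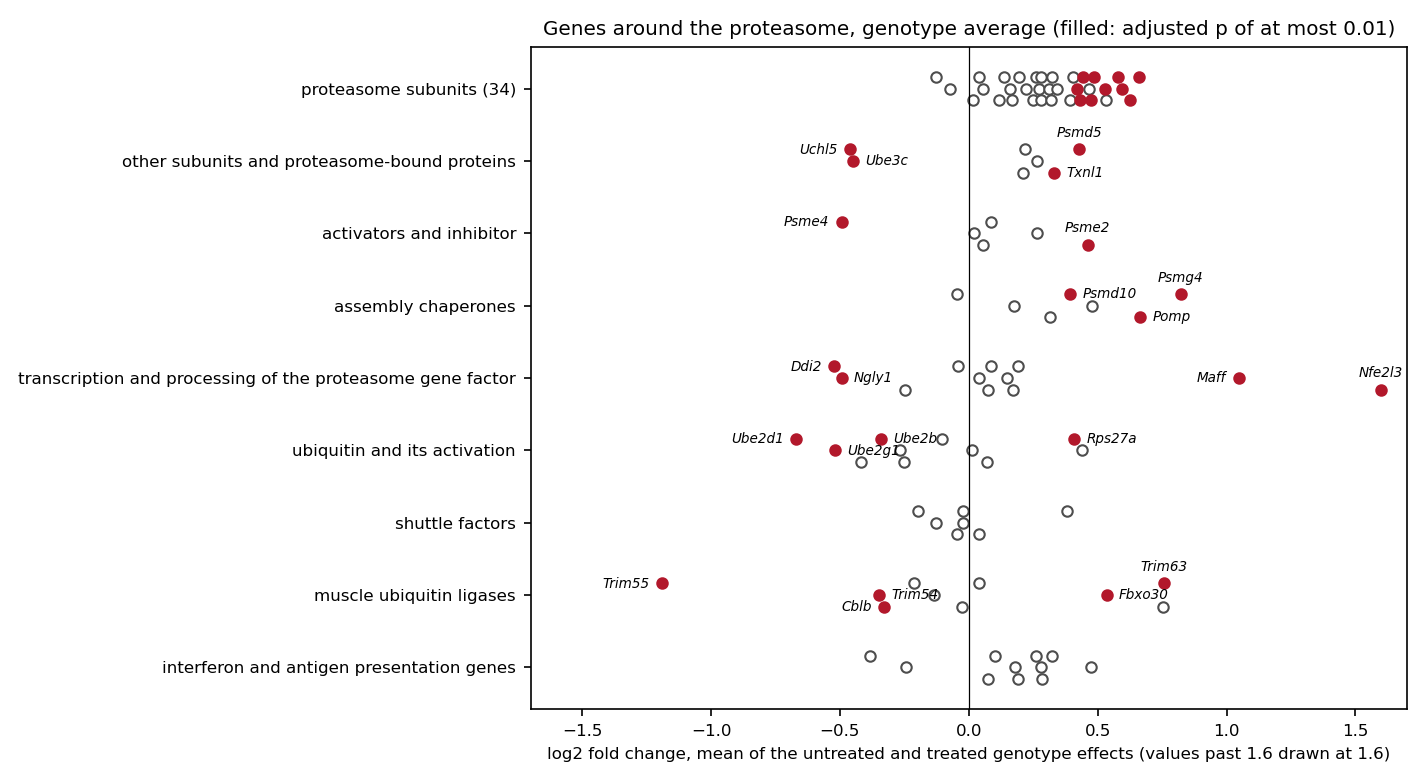
Log2 fold change of the genotype average for the 34 subunits and for the genes of each list that passed the filter (points), filled where the adjusted p is at most 0.01. The subunits lie almost wholly right of 0 while the lists of ubiquitin genes and ligases spread to both sides. *Nfe2l3*, at 0 in all 3 WT libraries, is drawn at the edge.

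The genes of ubiquitin tagging, which act before the proteasome, lay on both sides of 0. Of 11 genes of ubiquitin and its activation, 1 was called higher in the genotype average and 3 lower. The shares of all genes were 8.99% higher and 10.4% lower. *Rps27a*, a source of ubiquitin fused to a ribosomal protein that has many pseudogene copies, changed by 0.41 ± 0.10 (adjusted p = 0.0076), whereas the conjugating enzymes *Ube2d1*, *Ube2g1* and *Ube2b* fell, with -0.67 ± 0.10, -0.52 ± 0.10 and -0.34 ± 0.07 (adjusted p = 0.000103, 0.000908 and 0.002). Of 10 muscle ubiquitin ligases, 2 were called higher and 3 lower, beside the same shares of all genes. *Trim63*, which encodes MuRF1, changed by 0.76 ± 0.19 (adjusted p = 0.00666) and *Fbxo30* by 0.53 ± 0.14 (adjusted p = 0.00789). *Trim55*, a relative of *Trim63* at the sarcomere, fell, with -1.19 ± 0.17 (adjusted p = 0.000104), as did *Trim54* and *Cblb*, with -0.35 ± 0.09 and -0.33 ± 0.08. *Fbxo32*, which encodes atrogin-1, had 0.75 ± 0.24 (adjusted p = 0.0246).

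Of 7 shuttle factors, which carry ubiquitinated proteins to the proteasome, 0 were called in edgeR's test, and 1 was higher and 1 lower at an adjusted p of at most 0.05, where 16.2% of all genes were higher and 17.1% lower. The counts were the same at an unadjusted p of at most 0.05, where the shares of all genes were 21.3% and 22.3%. They were *Sqstm1*, with 0.38 ± 0.13 (adjusted p = 0.0348), and *Ubqln4*, with -0.20 ± 0.07 (adjusted p = 0.0355). Of 11 interferon and antigen presentation genes, 0 were called, with 2 higher and 1 lower at an adjusted p of at most 0.05. At an unadjusted p of at most 0.05, 3 were higher and 1 lower, beside the same 21.3% and 22.3% of all genes. *B2m*, the light chain of class I molecules, had 0.47 ± 0.13 (adjusted p = 0.0112), and *Tap1*, which lies beside *Psmb9*, had 0.28 ± 0.16 (adjusted p = 0.177). Between *Mtm1* KO + TAM and *Mtm1* KO, 0 of these 11 were called. At an unadjusted p of at most 0.05, 5 were lower, where 4.48% of all genes were. The median was -0.33, beside -0.46 for the 3 inducible subunits and -0.01 for all genes. Without *Mtm1* KO replicate 10 the inducible subunits had -0.34 (*Psmb9*), -0.16 (*Psmb8*) and 0.06 (*Psmb10*).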

How the data were processed

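The study sequenced quadriceps RNA, and 16 libraries were deposited. Per the labels and the study's methods, the authors demultiplexed the reads with bcl2fastq (2.17), aligned them to GRCm38 with STAR (2.5.0c) and counted reads per gene with HTSeq, and their processing notes also name Cufflinks (2.2.1). The strand setting of the counting is not given in the sources used here. The deposited read counts were used as they stand, and the RPKM values that the authors computed from total count and gene length were divided by each library's TMM factor to give scaled RPKM. Of the value columns, 32 were used, a count and an RPKM for each of 16 libraries.

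Counts were tested with edgeR (4.0.16, R 4.3.3) by the quasi-likelihood test with TMM factors, after filterByExpr with a minimum count of 10 and a minimum total of 15, and p-values were adjusted after Benjamini-Hochberg over all genes tested. A gene was called at an adjusted p of at most 0.01, the threshold of the study, and 0.05 was given beside it. Pairs of groups were fitted on their own libraries, and the genotype average and the interaction on all 4 groups of the 14 libraries the study kept. The standard error of a log2 fold change was taken as its size divided by the square root of F. DESeq2 (1.42.0), limma (3.58.1) on log2(RPKM + 0.1) and log2(RPKM + 1) without TMM factors, edgeR's exact test, other scalings and filters, all 16 libraries and each library left out were tried as alternatives. The scripts were tested on simulated data. Ratios of subunits were compared by an exact permutation test. Plots were made with matplotlib (3.10.9) in Python (3.11.15).

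The subunits and the gene lists were chosen with earlier results of these data known. Library values are given for the subunits called in the genotype average, the inducible subunits and the constitutive ones they replace, and the members listed with them in the design, and genes of other lists are named where called, at most 5 a list, or where their role is central.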

Additional observations from a re-analysis of the deposited data

Results flagged for a closer look

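In *Mtm1* KO + TAM replicate 15, *Psma3* stood at 58.0 scaled RPKM, away from the 48.3 to 49.1 of the other libraries of its group. The median log2 level of the 11 non-ATPase subunits relative to the WT mean was 0.21 in WT + TAM replicate 5, while the other WT + TAM libraries lay between 0.07 and 0.08. Among 56 groups of libraries examined in this way, chance alone gives such a gap in about 5 percent.

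The libraries outside the main set also stood apart. The median log2 level of the 34 subunits was 0.55 in WT replicate 1, while WT replicates 2 to 4 had -0.07 to 0.09. It was 0.72 in *Mtm1* KO replicate 12, while *Mtm1* KO replicates 9 to 11 had 0.08 to 0.50. What sets these libraries apart was not tested.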

How the results depend on the processing

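No paired analysis was possible because the replicate numbers of the labels run from 1 to 16 and no number is shared between groups. The study's supplement says that the mice were littermates, but not which libraries share a litter, so litter was not in any fit. Apart from those at 0.05, the counts that follow have no share of all genes beside them, as it was not recorded. Fits with all 16 libraries take WT replicate 1, with 74 *Mtm1* counts, as WT, and are not a clean check of a genotype difference. Subunits called in the genotype average numbered 18 at an adjusted p of at most 0.05, 30 with library size as the only scaling, 29 with limma at either pseudocount (on the deposited RPKM without TMM, so that test and scaling changed together), 4 with all 16 libraries and 5 to 14 with 1 library left out. Between *Mtm1* KO and WT they numbered 3 at 0.05, 3 with DESeq2, 10 with library size only, 1 without the filter, 4 and 3 with limma (pseudocounts 0.1 and 1), 1 with the exact test and 0 to 3 with 1 library left out (3 without *Mtm1* KO replicate 9). Between *Mtm1* KO + TAM and WT + TAM they numbered 8 at 0.05, 5 with DESeq2, 16 with library size only, 13 and 11 with limma, 4 with the exact test, 2 in 1 fit over all 4 groups and 0 to 4 with 1 library left out. Between *Mtm1* KO + TAM and WT they numbered 12 at 0.05, 10 with DESeq2, 3 with RLE factors, 19 with library size only, 8 without the filter, 3 with at least 10 counts in every library, 11 and 8 with limma, 0 with all 16 libraries, 2 with the GC offset, 8 with the exact test, 2 in 1 fit and 0 to 10 with 1 library left out. In both tamoxifen comparisons within a genotype and in the interaction the count was 0 in every alternative run.

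The median log2 fold change of the subunits was 0.62, 0.67, 0.57 and 0.70 with library size only (in order, the genotype average, *Mtm1* KO with WT, *Mtm1* KO + TAM with WT + TAM and *Mtm1* KO + TAM with WT), where the median of all genes was 0.31, 0.33, 0.27 and 0.28. It was 0.61, 0.66, 0.55 and 0.67 with limma at a pseudocount of 0.1, where all genes had 0.28, 0.32, 0.25 and 0.26, and 0.57, 0.65, 0.54 and 0.66 at 1, where all genes had 0.17, 0.20, 0.16 and 0.16. With 1 library left out it ran from 0.25 to 0.38, 0.21 to 0.47, 0.23 to 0.39 and 0.34 to 0.51 in the same order, from 0.02 to 0.26 between *Mtm1* KO + TAM and *Mtm1* KO, from 0.02 to 0.13 between WT + TAM and WT and from -0.07 to 0.18 in the interaction. The *Psmb10* to *Psmb7* ratio between genotypes was 0.58 with all 16 libraries and 0.49 to 0.74 with 1 left out, and that of *Psmb8* to *Psmb5* -0.20 to 0.12.

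Among values of single subunits, those that turned in sign had not been called in the comparison concerned. With library size only, *Psma3* had 0.24 in the genotype average and 0.16 between *Mtm1* KO and WT, *Psmb7* 0.30 and *Psmc6* 0.23 in the latter, and *Psmd6* 0.19, 0.11 and 0.26 in the genotype average, untreated and under tamoxifen. *Psma3* had 0.0076 with the GC offset and *Psmb7* -0.0503 with all 16 libraries, both in the genotype average. With 1 library left out, the genotype average ran from -0.0165 to 0.0829 for *Psmb7* and -0.0546 to 0.088 for *Psmc6*, the untreated change from -0.13 to 0.0799 and -0.23 to 0.0655 for the same genes, the change under tamoxifen from -0.0218 to 0.0733 for *Psma3*, -0.0913 to 0.36 for *Psmb9* and -0.0854 to 0.0289 for *Psmd6*, and that of *Psmb10* between *Mtm1* KO + TAM and *Mtm1* KO from -0.33 to 0.0646. The cause was not tested. The values that had been called in their own comparison were each rerun under several settings and with libraries left out. Counted over these reruns, 151 kept the call, 62 lost it with the same direction and 0 turned.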

Other observations

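Markers of further cell types were measured beside the subunits, with calls at an adjusted p of at most 0.01 in edgeR's quasi-likelihood test of the genotype average. At that threshold 8.99% of all genes were called higher and 10.4% lower. Of 3 satellite cell genes 1 was lower, *Pax7*, with a log2 fold change of -1.33. Of 5 endothelial genes 1 was lower, *Tek*, with -0.53, and the summed level of the list was 52.9 to 77.2 scaled RPKM in WT, 40.7 to 52.3 in WT + TAM, 41.9 to 61.3 in *Mtm1* KO and 31.2 to 49.9 in *Mtm1* KO + TAM. Of 5 fibroblast genes 2 were higher, *Pdgfra* with 0.42 and *Lum* with 0.53. Of 5 fat cell and 5 red blood cell genes, 0 passed an adjusted p of 0.05, with medians of -0.07 and -0.10, and the fat cell sum ran from 323 to 2455 scaled RPKM over the libraries of the main set. Of 9 lymphocyte genes only 2 passed the filter on low counts, and 1 of them, *Ptprc*, was higher, with 0.88.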
